A study of Rattus norvegicus with 9 samples.

Results

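Heat shock proteins and chaperones were represented by 4 genes, Hspb1, Hspa1b, Hspa5 and Hspd1, of the 32623 Ensembl rat genes in the count table. They were chosen by name and matched to rows by identifier: ENSRNOG00000023546 for Hspb1, ENSRNOG00000045654 for Hspa1b, ENSRNOG00000018294 for Hspa5 and ENSRNOG00000014525 for Hspd1. The rule for choosing them uses no measured value, but it was written with earlier results of these data known. Expression was measured by RNA sequencing of poly(A) RNA from rat brain tissue in 3 groups of 3 libraries. All groups went through a modelling step, left undescribed in the labels, received an injection 4.5 h after it, and gave tissue 3 days after the injection. The saline group received saline. The rt-PA group received rt-PA (recombinant tissue plasminogen activator, a drug that dissolves clots by converting plasminogen to plasmin), although its count columns are headed uk, a name that was not resolved. The remaining group received Nano-patrol+NIR, a preparation that the labels name but do not describe, given with near-infrared light. Strain, age, sex, brain region and hemisphere were not given in the sources used here, and no group without the modelling step and no group given Nano-patrol or the light alone was analysed here. Nothing in the labels says that each library was a different animal, and the p-values therefore cover only the variation among these libraries, which may be technical.

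Chaperones bind proteins that are unfolded or still folding, keep them from aggregating and help them reach their shape. Cells make more of them when proteins are damaged, through heat shock factor in the cytosol and nucleus and through the unfolded protein response when the damage lies in the endoplasmic reticulum. In injured brain, the small heat shock protein Hspb1 and the inducible Hsp70 proteins are widely used as markers of cell stress. The 4 genes stand for different compartments and modes of action. Hspb1 encodes Hsp27 (Hsp25 in rodents), a small heat shock protein that holds unfolding proteins without using ATP. Hspa1b encodes an inducible cytosolic Hsp70, an ATP-driven chaperone. Hspa5 encodes BiP (GRP78), the Hsp70 of the endoplasmic reticulum which also binds the sensors of the unfolded protein response. Hspd1 encodes Hsp60, the barrel-shaped chaperonin of mitochondria, and is arranged head to head with Hspe1, the gene of its partner Hsp10.

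Promoter windows are shown to place the elements named for these stress pathways beside the values. Heat shock element matches were found in the window of Hspb1, which averaged far above its saline level in the rt-PA libraries. They were also found in that of Hspd1, which stayed close to its saline level. The window of Hspa5, which averaged 2.24 times its saline level in rt-PA, held an endoplasmic reticulum stress response element match. Whether the matches bear on the levels was not tested. RefSeq windows on build GRCr8, from 250 bases before to 50 bases after the start site, were given for 3 of the 4 genes; none is printed for Hspa1b. The windows are chr12:26432252-26432551 on the minus strand for Hspb1, chr3:38452766-38453065 on the plus strand for Hspa5 and chr9:64083988-64084287 on the minus strand for Hspd1, and the build behind the counts was not given in the sources used here. Capitals mark matches to a heat shock element, searched as GAANNTTC or TTCNNGAA, or to an endoplasmic reticulum stress response element, searched as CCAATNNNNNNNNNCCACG, on both strands. The sequences run 5′ to 3′ in the direction of transcription.
Hspb1: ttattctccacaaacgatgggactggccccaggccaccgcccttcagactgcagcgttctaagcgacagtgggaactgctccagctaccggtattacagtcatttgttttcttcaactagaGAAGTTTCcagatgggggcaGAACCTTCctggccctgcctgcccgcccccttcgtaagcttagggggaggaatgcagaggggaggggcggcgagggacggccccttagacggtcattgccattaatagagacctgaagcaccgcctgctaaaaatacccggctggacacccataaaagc
Hspa5: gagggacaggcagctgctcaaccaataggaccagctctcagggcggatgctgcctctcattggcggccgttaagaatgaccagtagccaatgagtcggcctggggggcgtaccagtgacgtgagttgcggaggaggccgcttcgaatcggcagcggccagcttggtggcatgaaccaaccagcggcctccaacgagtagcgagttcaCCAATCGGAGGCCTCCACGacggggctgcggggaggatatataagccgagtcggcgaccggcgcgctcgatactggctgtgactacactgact
Hspd1: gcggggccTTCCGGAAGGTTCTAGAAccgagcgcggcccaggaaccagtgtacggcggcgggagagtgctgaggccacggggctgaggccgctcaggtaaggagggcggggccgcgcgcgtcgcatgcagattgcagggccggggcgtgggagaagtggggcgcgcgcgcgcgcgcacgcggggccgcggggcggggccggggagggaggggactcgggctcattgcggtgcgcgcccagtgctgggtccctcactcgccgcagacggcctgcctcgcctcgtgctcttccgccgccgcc
The Hspb1 window held 2 matches to the heat shock element, GAAGTTTC from -129 to -122 and GAACCTTC from -109 to -102 relative to the start site. The Hspd1 window held 3 matches that overlap in 1 run from -242 to -225, TTCCGGAA, GAAGGTTC and TTCTAGAA. That run also matched the longer 3-unit forms TTCNNGAANNTTC and GAANNTTCNNGAA. The Hspa5 window held no heat shock element match and 1 match to the endoplasmic reticulum stress response element, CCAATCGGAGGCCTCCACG from -43 to -25. Of 33469 promoter windows of the same length, 15.9% held a heat shock element match, 0.798% a 3-unit match and 0.0657% an endoplasmic reticulum stress response element match. The 8-letter heat shock match is therefore common by comparison with the others. A match describes letters in a window and was not measured as a bound site.

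**Figure D1:**
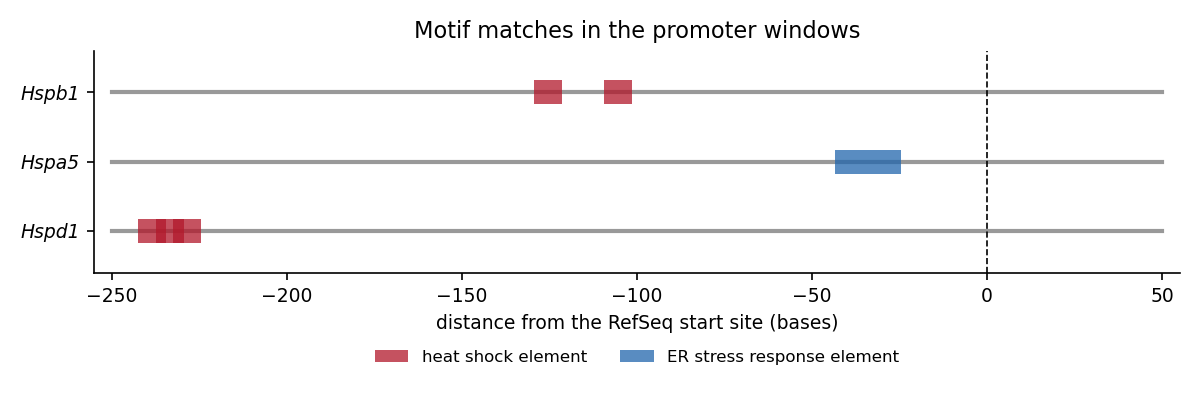
Map of motif matches in the promoter windows of Hspb1, Hspa5 and Hspd1, with distance from the RefSeq start site in bases on the x axis and 1 line per gene. Bars mark matches: Hspb1 has 2 heat shock element matches between -129 and -102, Hspd1 has 3 overlapping ones between -242 and -225, and Hspa5 has 1 endoplasmic reticulum stress response element match from -43 to -25.

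Library totals ran from 13059048 to 14992109 counts, and 15402 genes were abundant enough to be tested. Libraries were compared by their mean correlation of log2 CPM with their own group over all tested genes (CPM being counts after scaling every library to the same total). The lowest of each group were saline 1 at 0.9284, rt-PA 3 at 0.9046 and Nano-patrol+NIR 3 at 0.9421. The other libraries ran from 0.9399 to 0.9646, so Nano-patrol+NIR 3 lay within their range. Some library is always the lowest of its group, so 1 per group is named by construction. Saline 1 (1.113), rt-PA 3 (1.047) and Nano-patrol+NIR 3 (1.104) also had the highest TMM scaling factors, against 0.935 to 0.99 elsewhere. After subtracting group means, saline 1 had a correlation of 0.21 with rt-PA 3 and 0.377 with Nano-patrol+NIR 3. That between rt-PA 3 and Nano-patrol+NIR 3 was 0.278. Remaining libraries gave 0.0114 to 0.359 across groups, and such values depend on each other. Whether what the lowest libraries share bears on Hspb1 and Hspa5 was not tested. Results that rest on these libraries are given with and without them. The count rows carry no gene symbols, so the tissue label was not checked against brain markers, and other chaperone genes and markers of other cell types were not read from the table. In bulk tissue, fewer cells of a type and less RNA per cell cannot be told apart.

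Among the 3 tested genes, Hspb1 varied between libraries by far the largest factor. Its level was 3.94, 6.32 and 4.41 CPM in saline libraries 1 to 3 (58, 82 and 62 counts). It was 345, 370 and 29.5 CPM in rt-PA libraries 1 to 3 (4466, 4856 and 424 counts). All rt-PA libraries therefore lay above all saline libraries, rt-PA 1 and rt-PA 2 at 70.6 and 75.7 times the saline mean and rt-PA 3 at 6.04 times. In Nano-patrol+NIR libraries 1 to 3 the level was 5.3, 4.7 and 42.4 CPM (71, 62 and 609 counts). Nano-patrol+NIR 1 and 2 lay within the saline range, and Nano-patrol+NIR 3 lay at 8.68 times the saline mean, above rt-PA 3.

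The group means of Hspb1 were 4.89 ± 1.26 CPM in saline, 248 ± 190 CPM in rt-PA and 17.5 ± 21.6 CPM in Nano-patrol+NIR (SD, n = 3 each). Within rt-PA the highest library exceeded the lowest by 12.5 times, a ratio that 2.95% of tested genes passed in that group. Within Nano-patrol+NIR the ratio was 9.02, passed by 1.78% of tested genes, and within saline it was 1.6, passed by 41.6%. The libraries that set these ratios in rt-PA and Nano-patrol+NIR, rt-PA 3 and Nano-patrol+NIR 3, also had the lowest correlation with their group over all genes. The part of that in the Hspb1 values was not tested.

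Hspa5 was higher in rt-PA 1 and rt-PA 2 as well, by a smaller factor. Its level was 251, 294 and 286 CPM in saline libraries 1 to 3, and 677, 859 and 329.7 CPM in rt-PA libraries 1 to 3. The rt-PA libraries stood at 2.44, 3.1 and 1.19 times the saline mean, so rt-PA 3 was only slightly above the highest saline library while the other rt-PA libraries were well clear of it. In Nano-patrol+NIR libraries 1 to 3 the level was 325, 311 and 343 CPM, or 1.17, 1.12 and 1.24 times the saline mean. These 3 libraries lay close together and just above every saline library, and rt-PA 3 fell among them. Group means were 277 ± 23 CPM in saline, 622 ± 269 CPM in rt-PA and 326 ± 15.9 CPM in Nano-patrol+NIR (SD, n = 3 each). The ratio of highest to lowest library was 2.61 in rt-PA, against 1.17 in saline and 1.1 in Nano-patrol+NIR. Of the tested genes, 21.6%, 83.4% and 90.4% passed these ratios in the same groups.

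Hspd1 varied little. Its level was 144, 135 and 151 CPM in saline libraries 1 to 3, 166, 149.9 and 164 CPM in rt-PA, and 133, 147 and 153 CPM in Nano-patrol+NIR. The 3 groups overlapped, and the library ratios to the saline mean ran only from 0.932 to 1.16. In rt-PA 3, where Hspb1 and Hspa5 were far below the other rt-PA libraries, Hspd1 lay between them. The ratio of highest to lowest library was 1.12 in saline, 1.11 in rt-PA and 1.14 in Nano-patrol+NIR, a ratio that 90.8%, 94.3% and 83.8% of tested genes passed in the same groups. Group means were 143 ± 7.88, 159.9 ± 8.73 and 144 ± 9.85 CPM in saline, rt-PA and Nano-patrol+NIR (SD, n = 3 each).

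Hspa1b, the inducible Hsp70 gene, was at the counting floor. Its counts were 1, 0 and 2 in saline libraries 1 to 3, 0, 0 and 1 in rt-PA, and 0, 0 and 1 in Nano-patrol+NIR, 5 in all, with 5 libraries at 0. It was too low to be tested. Summed over a group, the level was 0.0718 CPM in saline (exact 95% Poisson interval 0.0148 to 0.2098), 0.0247 CPM in rt-PA (0.000626 to 0.138) and 0.0244 CPM in Nano-patrol+NIR (0.000618 to 0.136), where the intervals cover counting error only. In a single library a count of 0 allows up to 3 counts, or 0.204 to 0.232 CPM at these depths. For the groups the summed intervals above are the limits, and they overlap. Hspa1b has a near-identical neighbour, Hspa1a, and reads that fit both genes may be split, dropped or given to 1 of them by the authors' counting, which is not described. The Hspa1b values are therefore uncertain as a measure of inducible Hsp70 RNA.

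**Figure D2:**
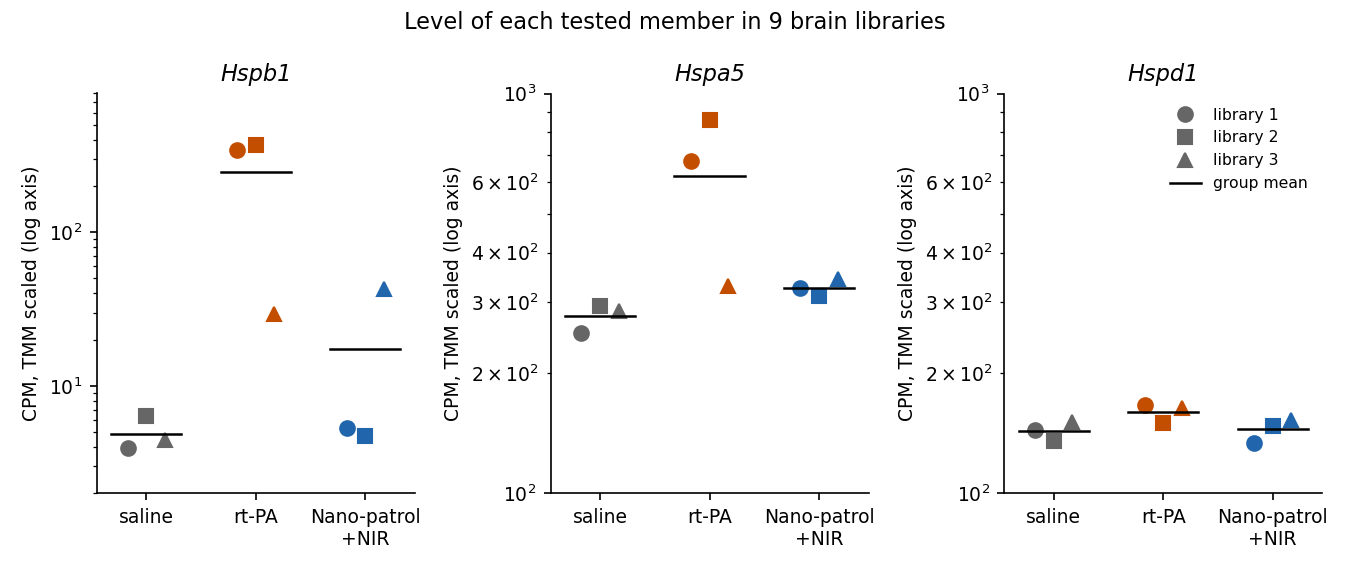
Level of Hspb1, Hspa5 and Hspd1 in each library, in CPM on a log axis that differs in range between the Hspb1 panel and the others; symbols mark the library number and the horizontal line the group mean. Hspb1 is at 345 and 370 CPM in rt-PA 1 and rt-PA 2 but 29.5 CPM in rt-PA 3, Hspa5 is at 677 and 859 CPM in rt-PA 1 and rt-PA 2 but 329.7 CPM in rt-PA 3, and Hspd1 stays between 133 and 166 CPM.

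The comparison of rt-PA with saline asked how the thrombolytic group differed from the injected controls. Hspb1 averaged 50.7 times its saline level in the fit, a log2 fold change of 5.67 (SE 1.21, unadjusted 95% interval 2.91 to 8.42). The unadjusted p was 0.00126, and at an edgeR adjusted p of 0.0925 the gene did not pass the threshold of 0.05. Among the 15402 tested genes its log2 fold change ranked 13 from the highest, and its p ranked 207 from the smallest. Hspa5 averaged 2.24 times its saline level, a log2 fold change of 1.17 (SE 0.31, interval 0.46 to 1.87), with an unadjusted p of 0.00482 and an edgeR adjusted p of 0.133. Its log2 fold change ranked 797 from the highest. Hspd1 had a log2 fold change of 0.16 (SE 0.13, interval -0.14 to 0.46, edgeR adjusted p = 0.572), so differences of up to 1.38-fold remain within its interval. The median log2 fold change of all tested genes was -0.0087.

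None of the 3 tested members passed the threshold for rt-PA against saline (a count of 0), where 0.00649% of all tested genes did. At an unadjusted p under 0.05, 2 of the 3, Hspb1 and Hspa5, were higher in rt-PA, against 9.05% of all tested genes. The same 2 had no overlap between groups, every rt-PA library lying above every saline library, against 9.18% of all tested genes. DESeq2, run on the same counts, gave an adjusted p of 2.56e-07 for Hspb1 and 0.00925 for Hspa5, where it called 6.9% of all tested genes, and limma-voom gave 0.157 and 0.181, where it called 0%. Without rt-PA 3 the log2 fold change was 6.22 for Hspb1 (edgeR adjusted p = 0.0084) and 1.5 for Hspa5 (edgeR adjusted p = 0.00244), in a fit that called 13.5% of all tested genes. Without rt-PA 2 they were 5.26 (edgeR adjusted p = 0.273) and 0.86 (edgeR adjusted p = 0.392). Because rt-PA 3 was the lowest rt-PA library for both genes, leaving it out narrows the spread and raises the difference. The p-values without it may therefore be too small.

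**Figure D3:**
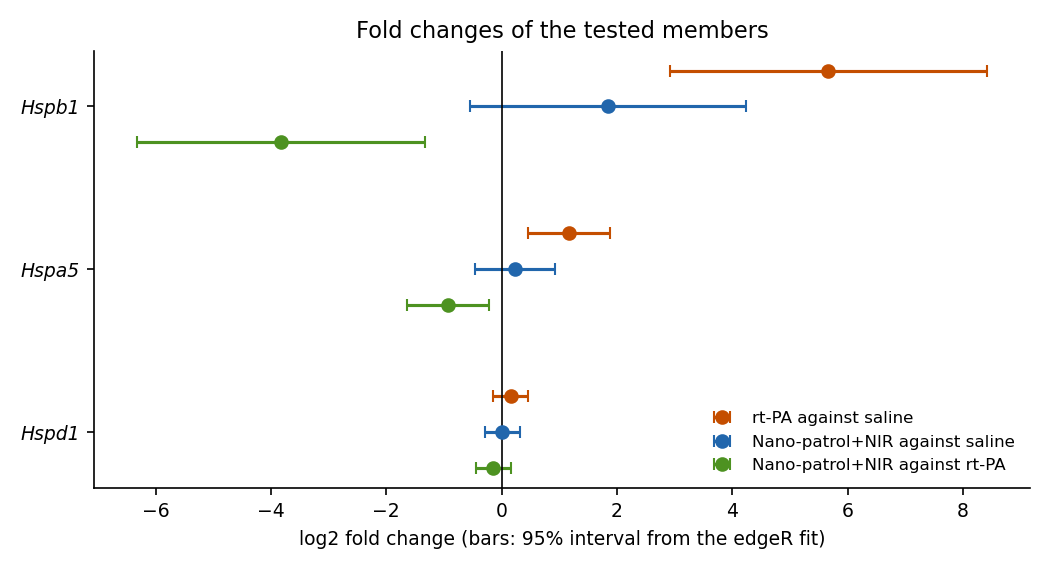
Log2 fold changes of Hspb1, Hspa5 and Hspd1 in the 3 comparisons, with bars for the unadjusted 95% interval from the edgeR fit and a vertical line at 0. Hspb1 lies at 5.67 against saline for rt-PA with an interval of 2.91 to 8.42, and all 3 Hspd1 intervals include 0.

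Nano-patrol+NIR was set against the same saline libraries, so its values share those controls with the rt-PA comparison. Hspb1 had a log2 fold change of 1.84 (SE 1.05, interval -0.55 to 4.23, edgeR adjusted p = 0.969). That value rested on 1 library: without Nano-patrol+NIR 3 it was 0.036 (edgeR adjusted p = 1). Hspa5 had a log2 fold change of 0.24 (SE 0.31, interval -0.46 to 0.93, edgeR adjusted p of 0.9999). Hspd1 had a log2 fold change of 0.01 (SE 0.13, interval -0.29 to 0.31, edgeR adjusted p of 0.9999), so a change in Hspd1 of more than 1.24-fold in either direction lies outside its unadjusted interval. A count of 0 of the 3 tested members passed the threshold with edgeR, against 0.00649% of all tested genes, and 0 had an unadjusted p under 0.05, against 5.89% of all tested genes. DESeq2 and limma-voom also called 0 of the 3, where they called 0.857% and 0% of all tested genes, as did edgeR without rt-PA 3, where it called 0.223%. Hspa5 was the 1 member whose groups did not overlap, being higher in each Nano-patrol+NIR library, as were 7.62% of all tested genes.

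The direct comparison of Nano-patrol+NIR with rt-PA asked whether the treated groups differed from each other. Mean Hspb1 was 17.5 CPM after Nano-patrol+NIR against 248 CPM after rt-PA, with a log2 fold change of -3.82 (SE 1.1, interval -6.32 to -1.32). Its unadjusted p was 0.0073 and its edgeR adjusted p 0.221. The groups overlapped because Nano-patrol+NIR 3, at 42.4 CPM, lay above rt-PA 3, at 29.5 CPM. Hspa5 had a log2 fold change of -0.93 (SE 0.31, interval -1.63 to -0.23, edgeR adjusted p = 0.263), and again rt-PA 3 lay within the range of the Nano-patrol+NIR libraries. Hspd1 had a log2 fold change of -0.15 (SE 0.13, interval -0.45 to 0.15, edgeR adjusted p = 0.659).

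In this comparison too a count of 0 of the 3 tested members passed the threshold with edgeR, as did 0% of all tested genes. Hspb1 and Hspa5, 2 of the 3, were lower in Nano-patrol+NIR at an unadjusted p under 0.05, against 7.86% of all tested genes. DESeq2 gave an adjusted p of 0.00259 for Hspb1 and 0.0737 for Hspa5, where it called 4.07% of all tested genes, and limma-voom gave 0.301 and 0.353, where it called 0.00649%. Without rt-PA 3 the log2 fold change was -4.37 for Hspb1 (edgeR adjusted p = 0.0211) and -1.27 for Hspa5 (edgeR adjusted p = 0.00438), in a fit that called 13.1% of all tested genes. Without Nano-patrol+NIR 3 the log2 fold change of Hspb1 was -5.67 (edgeR adjusted p = 0.198).

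**Figure D4:**
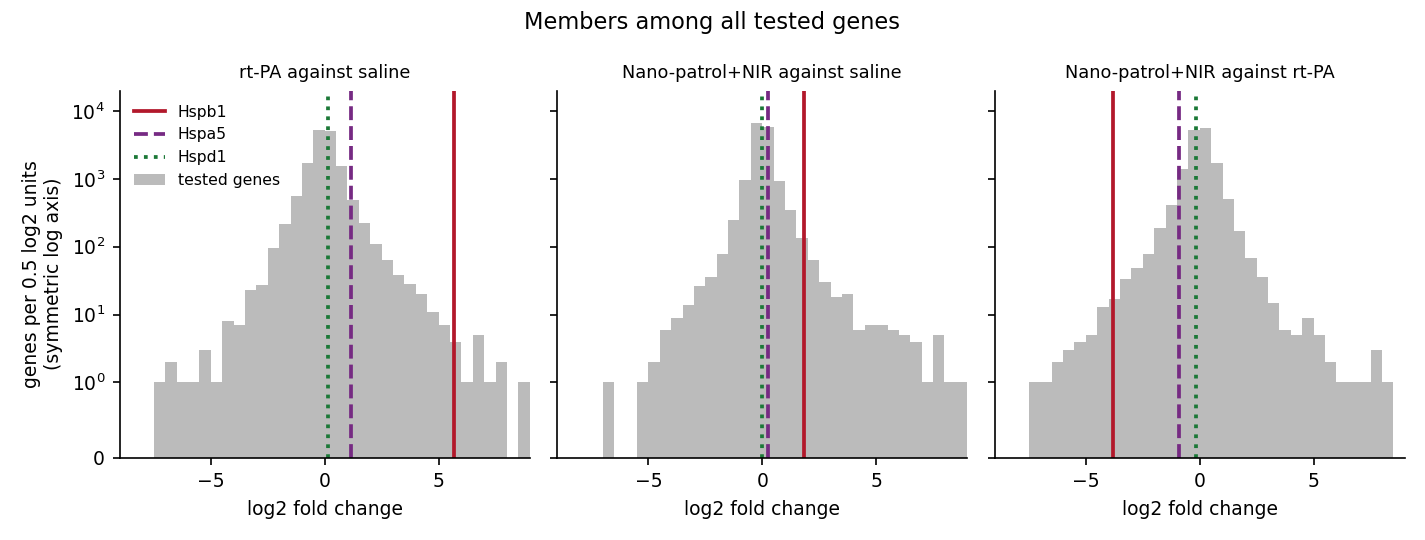
Number of tested genes per 0.5 log2 units of fold change in each comparison, on a symmetric log axis drawn from -9 to 9, with vertical lines at Hspb1, Hspa5 and Hspd1; 1, 5 and 1 genes lie outside the drawn range in the panels from left to right. Hspb1 lies in the upper tail for rt-PA against saline at 5.67 and in the lower tail for Nano-patrol+NIR against rt-PA at -3.82, and Hspd1 lies near the centre of all panels.

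The adjusted p of Hspb1 and Hspa5 crossed the threshold of 0.05 in 1 of the 9 fits that each left out 1 library, for both rt-PA against saline and Nano-patrol+NIR against rt-PA. That fit was the one without rt-PA 3, the lowest rt-PA library for both genes, so its p-values may be too small. Over the 9 fits the edgeR adjusted p of Hspb1 ran from 0.0084 to 0.288 for rt-PA against saline and from 0.0211 to 0.657 for Nano-patrol+NIR against rt-PA. For Hspa5 the ranges were 0.00244 to 0.392 and 0.00438 to 0.745 (edgeR adjusted p). The sign of each of these log2 fold changes was the same in all 9 fits, and Hspd1 passed the threshold in 0 of them. With saline 1, rt-PA 3 and Nano-patrol+NIR 3 all left out, a choice made after seeing the data, Hspb1 and Hspa5 passed for rt-PA against saline (log2 fold changes of 6.11 and 1.45, edgeR adjusted p of 7.44e-08 and 2.75e-05), in a fit that called 43.8% of all tested genes. Both also passed for Nano-patrol+NIR against rt-PA (-6.2 and -1.31, edgeR adjusted p of 7.04e-08 and 5.28e-05), where 40.5% of all tested genes were called. For Nano-patrol+NIR against saline 0 members passed, where 3.27% of all tested genes were called, and the log2 fold change of Hspb1 was -0.087. Leaving out the library farthest from each group narrows the spread, so these p-values are too small.

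**Figure D5:**
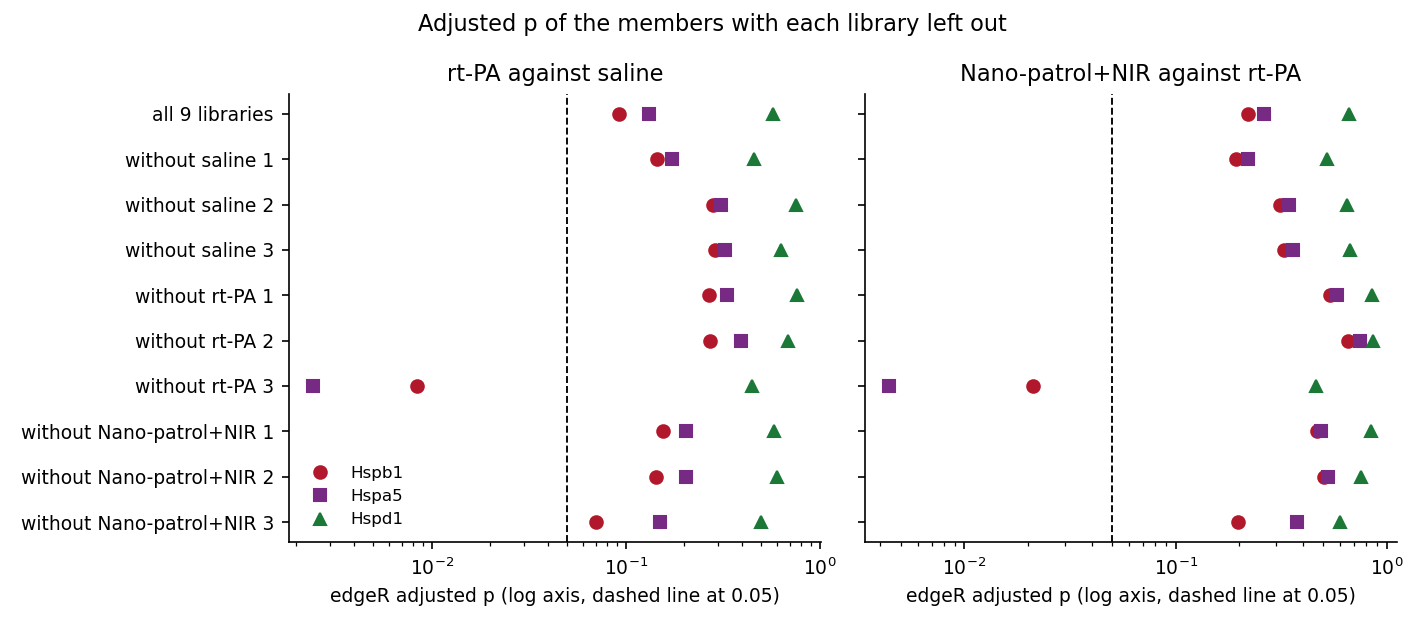
The edgeR adjusted p of Hspb1, Hspa5 and Hspd1 with all 9 libraries and with each library left out in turn, on a log axis with a dashed line at 0.05, for rt-PA against saline (left) and Nano-patrol+NIR against rt-PA (right). Hspb1 and Hspa5 lie left of the line only without rt-PA 3, at 0.0084 and 0.00244 on the left and 0.0211 and 0.00438 on the right.

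For each tested member the gene with the most similar pattern was taken as the one with the smallest root mean square difference of mean-centred log2 CPM over the 9 libraries, among 11860 other genes averaging at least 5 CPM. For Hspb1 this was ENSRNOG00000006094, at a difference of 0.73 log2 units where Hspb1 itself varied by 2.5. It lay at 4.78 to 6.75 CPM in saline, at 199, 212 and 19.97 CPM in rt-PA libraries 1 to 3, and at 6.04, 5.84 and 11.8 CPM in Nano-patrol+NIR. It shared with Hspb1 the high rt-PA 1 and rt-PA 2, the lower rt-PA 3 and a Nano-patrol+NIR 3 above its group, the last less far above it. For Hspa5 it was ENSRNOG00000028341, at a difference of 0.05 log2 units where Hspa5 varied by 0.57. That gene lay at 46.3, 50.1 and 47.2 CPM in saline, 115, 149.5 and 59.7 CPM in rt-PA, and 54.5, 52.4 and 58.8 CPM in Nano-patrol+NIR. Its order of libraries within each group was that of Hspa5. For Hspd1 it was ENSRNOG00000047088, at a difference of 0.053 log2 units where Hspd1 varied by 0.1. That difference was a larger part of the gene's own spread than for Hspb1 or Hspa5. These genes were picked for their likeness in these libraries, so the likeness is a description.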

How the data were processed

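Tools listed in the submitters' processing notes, without roles, were StringTie 1.3.1, HISAT2, Bowtie2 2.2.8 and fastp 0.18.0. Counting step, strand setting, build and annotation were not given in the sources used here. Values deposited by the authors were whole-number read counts per Ensembl gene and library, not normalized. Sample titles gave the groups and replicate numbers, and columns were matched through the sample descriptions. Member symbols came with the list of identifiers. Of 47357 genes in the RefSeq table (GRCr8), 0 carry an Ensembl identifier, so 0 of 116 other symbols in 17 lists of chaperones and cell markers could be paired with a row, and no list was tested.

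The analysis used edgeR 4.0.16 in R 4.3.3: filterByExpr (15402 of 32623 genes kept), TMM scaling, 1 mean per group over 9 libraries, the robust quasi-likelihood F test and Benjamini-Hochberg adjustment over all genes tested, with a threshold of 0.05. The common biological coefficient of variation was 0.356. Standard errors are the absolute log2 fold change over the root of the F statistic, and 95% intervals use the t distribution with the moderated degrees of freedom of the fit. An exact permutation test of 3 against 3 libraries cannot give a p below 0.1 and was not used. Centred log2 CPM used a prior count of 2. Named genes were the 4 members and, for each, the most alike gene.

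Alternatives were DESeq2 1.42.0 on the filtered genes, limma-voom (limma 3.58.1), other scalings and filters, the 6 libraries of a comparison alone, a replicate block and each library left out. The members and lists were chosen with earlier results of these data known. The tests were checked on simulated data.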

Additional observations from a re-analysis of the deposited data

How the results depend on the processing

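The first comparison is rt-PA against saline, the second Nano-patrol+NIR against saline and the last Nano-patrol+NIR against rt-PA, and values follow that order. edgeR called 1, 1 and 0 genes, and 0 of the 3 tested members in each. DESeq2 called 1062, 132 and 627 genes and 2, 0 and 1 members, with log2 fold changes of 5.7 (Hspb1) and 1.2 (Hspa5) in the first comparison and -3.85 (Hspb1) in the last. limma-voom called 0, 0 and 1 genes, and the 6 libraries of each comparison alone 0, 3 and 0. Other scalings and filters on low counts changed no call of a member, and the scalings shifted the overall median log2 fold change by less than 0.1.

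With single libraries left out, edgeR called 0 to 2112, 0 to 35 and 0 to 2047 genes and 0 to 2, 0 and 0 to 2 members, the highest of each without rt-PA 3. The log2 fold changes ran from 5.26 to 6.22, 0.036 to 2.3 and -5.67 to -3.39 for Hspb1, and from 0.86 to 1.5, 0.18 to 0.27 and -1.27 to -0.63 for Hspa5. For Hspd1 they ran from 0.13 to 0.21, -0.048 to 0.063 and -0.22 to -0.12. In the second comparison Hspd1 turned negative without saline 2 (-0.048), Nano-patrol+NIR 2 (-0.0037) and Nano-patrol+NIR 3 (-0.032).

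The fit with saline 1, rt-PA 3 and Nano-patrol+NIR 3 all left out was chosen after seeing the data, because these libraries lay farthest from their group, which makes p-values too small. It called 6710, 501 and 6195 genes and 2, 0 and 2 members, at log2 fold changes of 6.11 and -6.2 for Hspb1 and 1.45 and -1.31 for Hspa5 in the first and last comparisons. In the second, Hspb1 (-0.087) and Hspd1 (-0.0201) turned negative. The cause was not tested.

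The replicate block called 0, 0 and 0 genes and 0 members. For the 9 pairs that share a number, deviations from the group means had correlations of -0.362 to 0.278, with 5 above 0.1. Of the 9 libraries, 2 were closest to their own number. Deviations from a mean of 3 libraries depend on each other, so these values cannot decide whether samples with the same number were paired. Depth limits Hspa1b, with 5 counts in all; it was not tested under the other settings.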
